A study of Homo sapiens with 10 samples.

Results

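Translation initiation factors load the ribosome onto messenger RNA and bring it to the start codon, and their own mRNAs are translated like any other. Their transcripts were taken from 10 long-read libraries as every gene whose symbol begins with EIF and a digit, leaving out the eIF2 kinases (EIF2AK). The rule found 45 of the 10631 genes listed in any library. Editing was read with Ribo-STAMP, in which the small-subunit protein RPS2 is fused to APOBEC1, a cytidine deaminase that turns C into U, so that coding sequence under translation is marked.

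In HEK293T cells, a human embryonic kidney line, the Ribo-STAMP fusion (n = 3) was set against APOBEC1 without the ribosomal protein (APOBEC1-only, n = 3), both switched on with 1 ug/mL doxycycline for 72 h. In MDA-MB-231 cells, a triple-negative breast cancer line, Ribo-STAMP was induced with 1 ug/mL doxycycline for 48 h, and cells given 100 uM CoCl2 for 48 h (n = 2) were set against untreated cells (n = 2). CoCl2 stabilises hypoxia-inducible factors and is used to mimic low oxygen. All 10 libraries therefore came from cells that carried an induced editor, and none from cells without one. The labels number the replicates without saying that they were separate cultures, so the p-values measure the spread between these libraries only.

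Initiation starts when eIF2, bound to GTP and the initiator tRNA, joins the small subunit together with eIF1, eIF1A, eIF3 and eIF5. The mRNA is brought in by eIF4E, which binds the cap, the scaffold eIF4G and the helicase eIF4A, and after the start codon is found eIF5B joins the large subunit. eIF2B recharges eIF2 with GTP and is the enzyme that stress signals inhibit through phosphorylated eIF2, while the 4E-binding proteins keep eIF4E from eIF4G when mTOR is off.

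The files list, for each coding position of an isoform, how many reads carried the edit and how many covered the position, and only positions with at least 1 edited read. In MDA-MB-231 the coordinates are GRCh38, and the letters around an edited base can be read from the GENCODE 29 transcripts. For each of 12 factors a gene is named below, and other genes of that factor may hold a more edited position. The windows show the most edited position of each named gene in MDA-MB-231, as examples of the sequence around an edited base. Each runs 5′ to 3′ along the mRNA, is written as DNA and is 25 bases long, and the capital marks the edited C.
EIF5A: ggttggtattgaCatctttactggg
EIF6: gtgtgtggggaaCaggcacggtctc
EIF4A3: tgacctctacgaCacactgaccatc
EIF3D: gaaggaaagataCaacttccccaac
EIF2S1: cttgctggaataCaacaacattgaa
EIF4H: ctttaaggatctCagcataaggagt
EIF2B3: gaagccaatacaCtgaacctggctc
EIF4G2: gtaagaggcataCtaaataagctta
EIF1AX: tcagtttgatgaCattggagatgat
EIF1: cagggtgaccaaCgcaagaacatat
EIF2D: tggggccaaggaCagccttcaggtg
EIF4E: cctgcggctgatCtccaagtttgat

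The EIF5A position is chr17:7311038 on the plus strand, in exon 3 of 6 at base 186 of a coding sequence of 462 bases. There, 7 of 671 and 9 of 672 reads were edited in the CoCl2 libraries, against 9 of 470 in untreated replicate 1, and the position was not listed in untreated replicate 2. The EIF6 position, chr20:35280825 on the minus strand in exon 4 of 7, is base 198 of 735 coding bases and carried 25 edited reads over the MDA-MB-231 libraries. Single positions were edited in few of the reads that covered them, and the level of a gene is the sum over its positions. The EIF4A3 position lies at chr17:80138190 (minus, exon 8 of 12, coding base 819 of 1233), where 9 of 1127 and 7 of 1064 reads were edited with CoCl2, against 5 of 855 in untreated replicate 2. The EIF3D position lies at chr22:36516776 (minus, exon 11 of 15, coding base 1005 of 1644) and carried 19. The EIF2S1 position is chr14:67364884 (plus, exon 2 of 8, coding base 117 of 945), with 16 edited reads.

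In 10 of the 12 windows the base before the edited C is A, and in EIF4H and EIF4E it is T (U in the RNA), the bases that APOBEC1 prefers. EIF4H was edited at chr7:74187746 (plus, exon 2 of 6, coding base 195 of 684) and EIF4E at chr4:98891269 (minus, exon 3 of 7, coding base 189 of 651). EIF2B3 was edited at chr1:44879976 (minus, exon 8 of 12, coding base 817 of 1356), EIF4G2 at chr11:10805011 (minus, exon 5 of 22, coding base 253 of 2721) and EIF1AX at chrX:20130546 (minus, exon 6 of 7, coding base 399 of 432). EIF1 was edited at chr17:41690160 (plus, exon 3 of 4, coding base 268 of 339) and EIF2D at chr1:206593677 (minus, exon 14 of 15, coding base 1626 of 1752). Each of the 12 positions was listed in 3 MDA-MB-231 libraries and in none was it listed in all 4.

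The same preference held over all edited positions of the initiation factors. In the CoCl2 libraries 79.8 and 81.0% of their edited C followed an A or U, and in the untreated libraries 81.7 and 80.6% did, against 44.8% of the 33180 coding C in the same 85 isoforms. Over all genes the edited C followed an A or U in 80.1 and 80.0% of positions with CoCl2 and in 81.3 and 80.6% untreated. These shares lay close to those of the initiation factors in each library; no test was made. Their edited reads were also spread along the coding sequence: 33.7, 34.3 and 32.0% fell in its opening, middle and closing parts of equal length, against 32.2, 33.0 and 34.8% for all genes. Single factors differed from this. The alpha and gamma subunits of eIF2 had 49.5% (EIF2S1, 204 edited reads) and 51.5% (EIF2S3, 68 edited reads) in the opening part, while the beta subunit, EIF2S2, had 21.4% there and 47.7% in the closing part (304 edited reads). EIF1AX had 11.8% in the opening part (68 edited reads).

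Each library listed 14 to 44 initiation factors. The APOBEC1-only libraries listed 14 to 18, and the HEK293T Ribo-STAMP libraries 29 to 35. In HEK293T, 41 of the 45 genes were listed in at least 1 library and 9 in all 6. EIF1, EIF1AD, EIF2A and EIF4EBP2 were not listed there. In MDA-MB-231, 44 genes were listed, 41 of them in all 4 libraries, and EIF4E3, a cap-binding relative of eIF4E, was not. EIF3CL is a near-identical copy of EIF3C, which fits the rule but was not among the 45 genes found. How reads were divided between the copies is not given in the sources used here, so the values of EIF3CL are uncertain. As a check of the labels, all 8 markers of MDA-MB-231 were listed in that line and 2 of 8 in HEK293T, while 4 of 6 HEK293T markers were listed in HEK293T and 2 of 6 in MDA-MB-231. The HEK293T list held 3 to 149 edited reads per HEK293T library and 87 to 158 per MDA-MB-231 library, so that its level did not separate the lines. NEFL and DLK1 were not listed in HEK293T, and of 4 luminal and epithelial genes EPCAM and KRT19 were listed in MDA-MB-231, with 45 to 122 edited reads per library, while ESR1 and CDH1 were not. The libraries held 50908 to 65792 edited reads in HEK293T Ribo-STAMP, 2971 to 3498 in APOBEC1-only, 155572 to 172625 in CoCl2 and 158721 to 177069 in untreated MDA-MB-231.

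The first comparison, made to benchmark the long-read method, asked how much more the mRNAs were edited by the fusion than by unfused APOBEC1. The initiation factors held 1059, 850 and 1040 edited reads in the Ribo-STAMP libraries, against 48, 52 and 33 in the APOBEC1-only libraries. Every Ribo-STAMP library was far above every APOBEC1-only library. As a share of all edited reads they held 1.61, 1.67 and 1.76% with Ribo-STAMP and 1.37, 1.64 and 1.11% with APOBEC1 alone, so that the shares of the groups overlapped.

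The factors did not contribute alike. The 13 eIF3 genes, whose products form the largest initiation factor, held 213, 195 and 586 edited reads with Ribo-STAMP and 12, 11 and 12 with APOBEC1 alone. The 3 eIF4G genes held 585, 375 and 98 edited reads with Ribo-STAMP and 23, 24 and 10 with APOBEC1 alone. The Ribo-STAMP library numbered 3 was thus high for eIF3 and low for eIF4G. The eIF4A helicases held 51, 101 and 102 edited reads with Ribo-STAMP and 4, 8 and 2 with APOBEC1 alone, and the 5 eIF2B genes held 19, 30 and 23 against 1, 2 and 1. The single eIF6 gene, whose product keeps the large subunit from joining too early, had 0, 2 and 0 edited reads with Ribo-STAMP and none with APOBEC1 alone.

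Gene by gene, edited reads were scaled to depth and tested on log2(value + 1) with limma, a scale that shrinks changes at low values. A gene needed at least 10 edited reads in 3 libraries, which among the initiation factors only the Ribo-STAMP libraries reached, apart from EIF4G2. The 12 that passed could thus hardly be anything but higher there, and all 12 were (adjusted p from 1.04e-10 to 3.7e-07), as were 99.7% of the 654 genes tested. The median log2 change was 3.97 for the 12 initiation factors and 3.75 for all genes tested. With TMM scaling, which by its construction removes a difference shared by most genes, none of the 12 was called, and EIF4G2 (-0.33) and EIF4H (-0.06) turned negative.

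**Figure D1:**
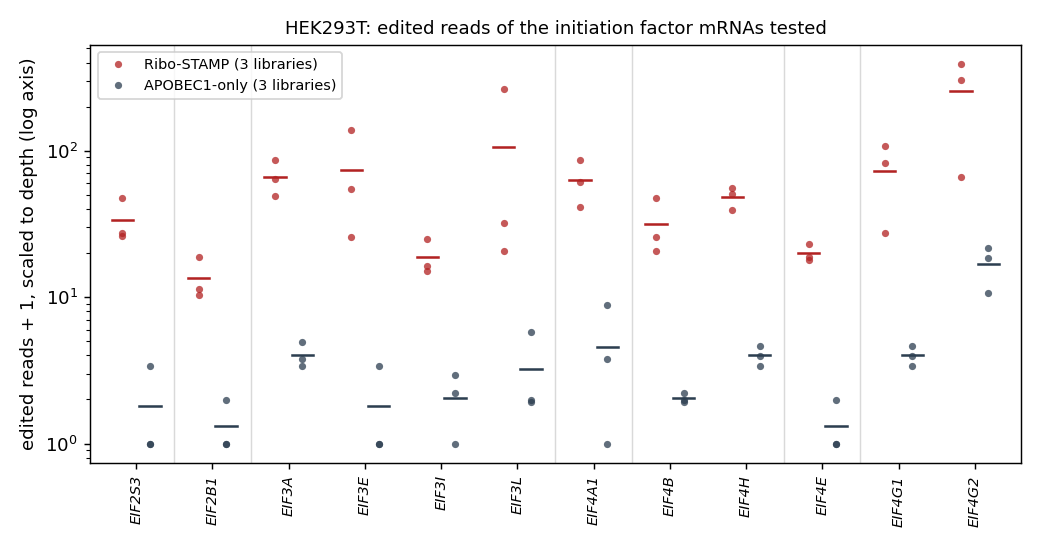
Depth-scaled edited reads plus 1 (log axis) of the 12 initiation factor mRNAs tested in HEK293T, with 1 point per library, a bar at the mean of the 3 libraries and grey lines between factors. The lowest Ribo-STAMP point lies above the highest APOBEC1-only point for each of the 12. The filter of 10 edited reads in 3 libraries made this likely, and 99.7% of the 654 genes tested were called higher. EIF3L and EIF4G2 have the widest spread between Ribo-STAMP libraries, 19.6 to 263 and 65.6 to 392 before adding 1.

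The largest change belonged to EIF3E, a subunit of eIF3. It had 24.7, 54.1 and 138 scaled edited reads with Ribo-STAMP, against 0, 0 and 2.4 with APOBEC1 alone (a log2 change of 5.27 ± 0.66 SE, adjusted p = 6.2e-10). EIF2S3, the GTP-binding subunit of eIF2, had 26.4, 25 and 46.8 with Ribo-STAMP, against 0, 0 and 2.4 with APOBEC1 alone (4.43 ± 0.62 SE, adjusted p = 7.32e-09). In both, the Ribo-STAMP library numbered 3 was the highest, and the groups did not overlap, which the filter made likely. EIF3L, an eIF3 subunit, had 19.6, 31.2 and 263 with Ribo-STAMP and 0.919, 0.982 and 4.8 with APOBEC1 alone (4.32 ± 0.69 SE, adjusted p = 1.22e-07), so that the library numbered 3 carried most of the Ribo-STAMP mean.

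On the log2(value + 1) scale the smallest changes were those of EIF3I, EIF2B1 and EIF4H. This order depends on the value added, since with 0.5 added EIF2B1 stood at 4.12 and EIF4G2 at 3.67. EIF3I, a further eIF3 subunit, had 15.3, 23.9 and 14 scaled edited reads with Ribo-STAMP and 0, 1.96 and 1.2 with APOBEC1 alone (a log2 change of 3.29 ± 0.56 SE, adjusted p = 3.7e-07). EIF2B1, the alpha subunit of eIF2B, had 9.38, 17.7 and 10.3 with Ribo-STAMP and 0, 0.982 and 0 with APOBEC1 alone (3.37 ± 0.39 SE, adjusted p = 1.04e-10). EIF4H, which stimulates the eIF4A helicase, had 38.4, 49.9 and 54.3 with Ribo-STAMP and 3.67, 2.95 and 2.4 with APOBEC1 alone (3.60 ± 0.59 SE, adjusted p = 2.09e-07). The groups stayed apart in all 3, which the filter made likely here too. The remaining 6, EIF3A, EIF4A1, EIF4B, EIF4E, EIF4G1 and EIF4G2, lay between, with log2 changes of 3.63 to 4.22.

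Part of the spread between Ribo-STAMP libraries went with the number of reads. EIF4G2, also called DAP5, a shortened relative of eIF4G that does not bind eIF4E, was covered by 1609, 990 and 198 reads in Ribo-STAMP replicates 1, 2 and 3, and EIF3L by 33, 48 and 183. Divided by coverage and by coding length, EIF4G2 had 10.5, 10.9 and 13.0 edited reads per 100 covering reads per kilobase, and EIF3L 38.3, 34.3 and 84.3. The EIF4G2 libraries were then close together, and EIF3L replicate 3 remained above the others.

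Editing per covering read compares the groups at equal mRNA abundance, but uses only isoforms edited in all 6 libraries, which in HEK293T are isoforms that the free enzyme edits too. Of 9 initiation factors tested, 9 were higher with Ribo-STAMP, as were 95.7% of the 392 genes tested, and their median log2 change was 3.70, against 3.47 for all genes tested. EIF3L had the largest change of the 9, with 69.7, 62.5 and 154 edited reads per 100 covering reads under Ribo-STAMP, and 1.02, 1.00 and 2.61 with APOBEC1 alone (5.56 ± 0.47 SE, adjusted p = 1.01e-07). EIF4G1, the main scaffold, had 73.7, 95.6 and 57.9 with Ribo-STAMP and 2.96, 5.00 and 0.943 with APOBEC1 alone (4.59 ± 0.52 SE, adjusted p = 1.44e-06). Values can pass 100 because edits are summed over positions. EIF3D, an eIF3 subunit that can bind the cap of some mRNAs, had 46.2, 16.7 and 29.3 with Ribo-STAMP and 1.18, 1.06 and 0.758 with APOBEC1 alone (4.32 ± 0.46 SE, adjusted p = 8.19e-07).

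The lower end was made up of EIF3M, EIF2B5 and EIF4G2. EIF3M, an eIF3 subunit, had 43.2, 13.2 and 32.9 edited reads per 100 covering reads under Ribo-STAMP, and 6.25, 4.17 and 2.13 with APOBEC1 alone (a log2 change of 2.55 ± 0.52 SE, adjusted p = 0.000314). EIF2B5, the catalytic subunit of eIF2B, had 26.1, 40.9 and 20 with Ribo-STAMP and 2.63, 2.86 and 3.57 with APOBEC1 alone (2.75 ± 0.46 SE, adjusted p = 5.9e-05). EIF4G2 had the smallest SE of the 9, with 28.6, 29.6 and 35.4 with Ribo-STAMP and 3.06, 3.12 and 3.04 with APOBEC1 alone (3.29 ± 0.21 SE, adjusted p = 8.22e-09). Differences between the factors were not tested. With each library centred on its median gene, 1 of the 9 was called, and these 3 turned negative, at -0.83, -0.62 and -0.09 for EIF3M, EIF2B5 and EIF4G2. The level of the 2 constructs was not measured here, so a difference in the amount of editor and a difference in ribosome targeting cannot be told apart.

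Levels between genes were compared per kilobase of coding sequence. In HEK293T Ribo-STAMP, where 24 initiation factors and 2404 genes could be measured, the initiation factors ranged from 7.33 to 101 edited reads per 100 covering reads per kilobase, with a median of 20.5, against 15.2 for all genes, and 16 of 24 lay above the median gene. EIF5A, best known for helping the ribosome through difficult stretches during elongation, was the highest at 101 ± 33.1 (SD, n = 3), but on 12, 20 and 30 covering reads. EIF3E followed at 97.7 ± 62.2, then EIF2S3 at 69.9 ± 35.1, EIF3I at 61.3 ± 36.2 and EIF3L at 52.3 ± 27.8. The spreads of these 5 overlapped, so that their order is not resolved. At the low end were EIF3A, the largest eIF3 subunit, at 7.33 ± 1.11 on 195 to 290 reads, and EIF2S1, the subunit of eIF2 that stress kinases phosphorylate, at 9.30 ± 1.65. The spread of EIF3A did not reach that of any of the 5 highest.

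In MDA-MB-231, 40 initiation factors and 5627 genes could be measured on this scale. Initiation factors had a median of 18.2 with CoCl2 and 14.3 untreated, against 18.6 and 15.9 for all genes. EIF3F, an eIF3 subunit, was the highest, at 62.4 ± 12.8 with CoCl2 and 87.1 ± 35.2 untreated (SD, n = 2), on 15.5 and 12 covering reads on average. EIF3K, a small eIF3 subunit, had 57.7 ± 14.6 with CoCl2 and 45.4 ± 22.3 untreated. EIF4A1 was the lowest by far, at 2.83 ± 0.28 with CoCl2 and 2.77 ± 0.166 untreated, at percentiles 0.906 and 0.977 of all genes.

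The 3 helicase genes made the range plain, since their coding sequences are of nearly the same length (1218 to 1233 bases). EIF4A1, the main helicase of the cap-binding complex, had 3.03 and 2.63 edited reads per 100 covering reads per kilobase with CoCl2 and 2.89 and 2.66 untreated, on 2271 to 3578 reads. EIF4A2, its close relative, had 13.1 and 9.78 with CoCl2 and 9.82 and 9.82 untreated, on 134 to 392 reads. EIF4A3, a core protein of the exon junction complex, had 13.3 and 9.10 with CoCl2 and 6.37 and 9.52 untreated, on 624 to 1127 reads. In HEK293T Ribo-STAMP, where EIF4A1 was covered by 117, 169 and 252 reads, it had 33.0, 39.8 and 20.9, and EIF4A3 had 8.32, 26.5 and 11.4 on 39, 49 and 85 reads. EIF4A1 was thus the lowest of the 3 in MDA-MB-231, and lay above EIF4A3 in each HEK293T Ribo-STAMP library. The library kits and induction times differed between the lines, so levels are set side by side with no test.

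This level moved with coverage in MDA-MB-231. Over the 40 initiation factors, Spearman's rho between level and coverage was -0.49 with CoCl2 and -0.78 untreated, and over all genes it was -0.13 and -0.27. In HEK293T Ribo-STAMP it was -0.16 over 24 initiation factors and 0.011 over all genes. Coverage is part of the denominator of the level, so these are descriptions only. One property of the files bears on it. No position was listed in all 4 MDA-MB-231 libraries, and 16.9% of the 3724 positions in initiation factors were listed in 3, against 11.5% of all positions. For the well covered EIF4A1 this share was 30.0% of 130 positions, for EIF2S2 35.8% of 81, for EIF1AX 30.4% of 23 and for EIF5A 29.5% of 44, and for the sparsely covered EIF2S3 2.13% of 47. The part of missing positions in the low level of EIF4A1 was not tested.

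**Figure D2:**
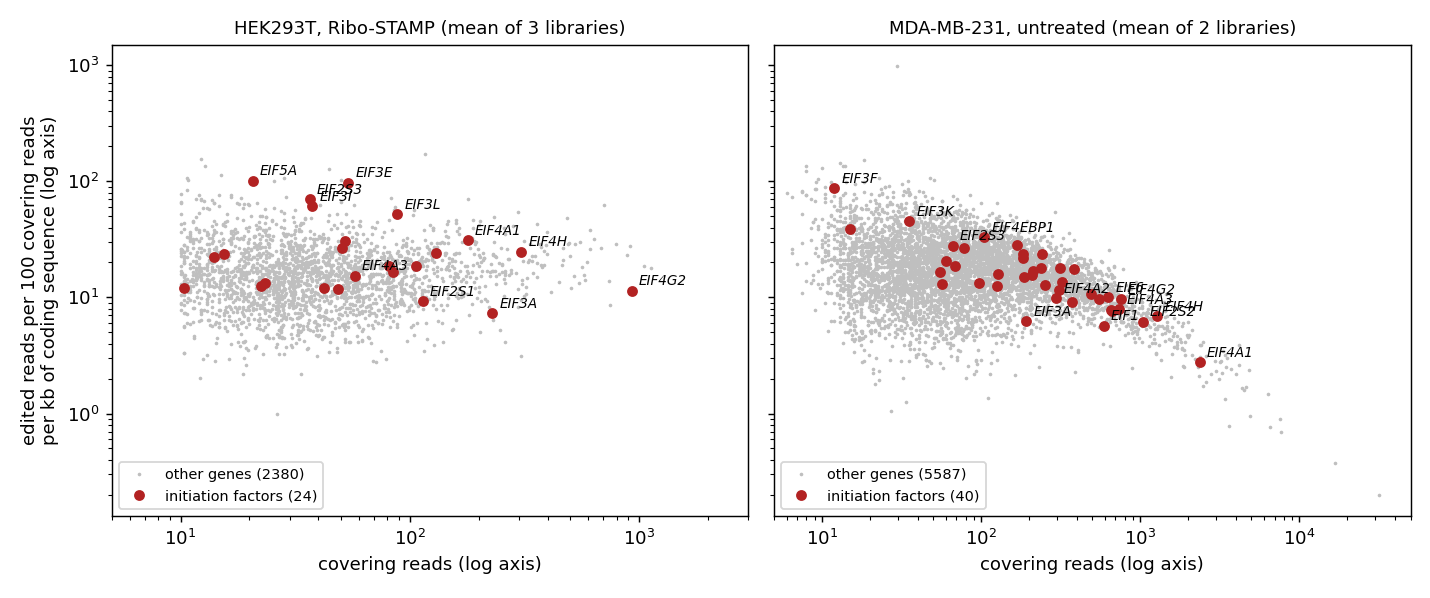
Edited reads per 100 covering reads per kilobase of coding sequence against covering reads (both log axes), for initiation factors (red) and other genes (grey), as the mean of 3 Ribo-STAMP libraries in HEK293T and of 2 untreated libraries in MDA-MB-231. In MDA-MB-231 the best covered initiation factor, EIF4A1, is also the least edited at 2.77, and EIF3F, with 12 reads, the most edited at 87.1, and in HEK293T the best covered, EIF4G2, with 932 reads, lies at 11.5, below the median gene at 15.2.

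The second comparison asked what CoCl2 did to the mRNAs and their editing in MDA-MB-231. Coverage, the number of reads on the isoforms listed in all 4 libraries, scaled by TMM, served as a stand-in for mRNA abundance. In such samples fewer cells that make an mRNA and less mRNA per cell cannot be told apart. As a check of the treatment, 5 of 8 measured hypoxia genes were covered by more reads with CoCl2, among them BNIP3 at 630 ± 110 with CoCl2 and 208 ± 3.87 untreated (SD, n = 2 each, adjusted p = 4.8e-05, limma), and SLC2A1 was lower.

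Among the 40 initiation factors measured, coverage of 15 was higher and of 8 lower with CoCl2, at an adjusted p under 0.05 over all 5659 genes tested. This is 37.5 and 20%, against 25.9 and 19.1% of all genes. The counts for single factors below rest on few genes and are to be read beside these shares. The median log2 change was 0.27 over the initiation factors and -0.01 over all genes. The 5 others, EIF1AD, EIF3I, EIF4E3, EIF4G3 and EIF5A2, had no isoform listed in all 4 libraries or a mean coverage under 10. Without CoCl2 replicate 1, or without CoCl2 replicate 2, no initiation factor was called in either direction. Such a fit leaves 1 library in a group, whose spread is taken from the other group, so these counts say little about stability.

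**Figure D3:**
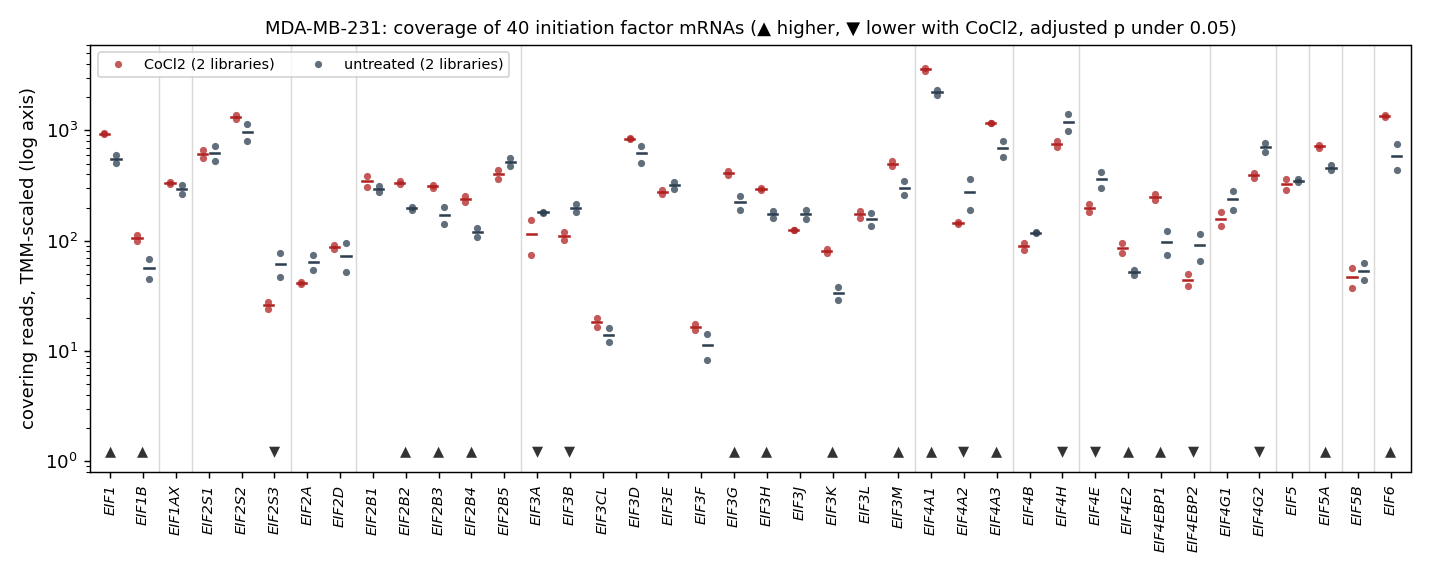
TMM-scaled covering reads (log axis) of 40 initiation factor mRNAs in MDA-MB-231, with 1 point per library, bars at group means and grey lines between factors. Triangles mark the 15 called higher and the 8 called lower with CoCl2, and EIF4A1 spans 3496 to 3708 reads with CoCl2 and 2113 to 2333 untreated.

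The change followed transcript length, and this bears on every call. Over 5646 genes with an annotated length, Spearman's rho between the log2 change and the GENCODE 29 transcript length was -0.64, and over the 40 initiation factors -0.57. Of the 19 initiation factors with transcripts under 2500 bases, 12 were higher and 1 lower with CoCl2, and of the 21 longer ones 3 were higher and 7 lower. Over all genes, 1299 were higher and 174 lower of 2792 under 2500 bases, and 164 higher and 904 lower of 2854 longer ones. With the trend taken out by a smooth curve over all genes, 8 initiation factors were higher and 3 lower, against 9.58 and 7.7% of all genes. Of the 15 called higher, 4 kept their call with the trend on transcript length and with the trend on coding length taken out: EIF2B2, EIF2B4, EIF3H and EIF3M. Of the 8 called lower, EIF4A2 and EIF4H did. With the transcript length trend alone taken out, 6 of the 15 and 2 of the 8 kept their calls. With the coding length trend alone taken out, 11 of the 15 and 5 of the 8 did. The share of all genes called in that setting is not given here, so these counts have no background beside them. Called only with the coding length trend taken out were EIF3D, higher (0.77, adjusted p = 0.0268), and EIF3J, lower (-0.85, adjusted p = 0.0157). EIF1AX, EIF2S2 and EIF3E were called only once the transcript length trend was taken out, the first pair higher and EIF3E lower. The length used for EIF3E leaves out an isoform that has no GENCODE 29 length. Counts of calls on this scale with a library left out have the same limit as above.

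**Figure D4:**
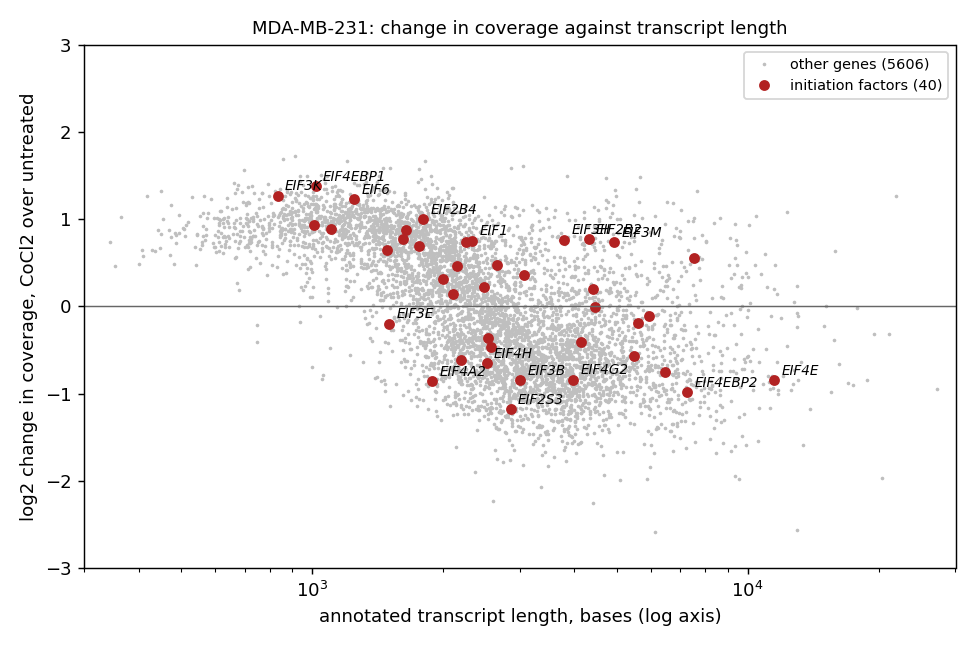
Log2 change in coverage, CoCl2 over untreated, against annotated transcript length (log axis) for 40 initiation factors (red) among 5646 genes (grey). Short transcripts lie mostly above 0 and long ones below, and EIF3H, EIF2B2 and EIF3M lie above 0 among transcripts of 3793 to 4942 bases, whereas EIF4A2 lies below 0 among transcripts of 1887 bases.

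Of the start-codon factors, both eIF1 genes were higher and eIF1A was not called. EIF1, which guards the choice of start codon, was covered by 940 and 921 reads with CoCl2, against 505 and 604 untreated (log2 change 0.75 ± 0.20 SE, adjusted p = 0.00433). Its close copy EIF1B had 99.5 and 113 reads with CoCl2 and 44.7 and 67.9 untreated (0.93 ± 0.28 SE, adjusted p = 0.00855). In both, the CoCl2 libraries lay above the untreated ones. EIF1AX had 341 and 326 reads with CoCl2 and 317 and 266 untreated (0.20 ± 0.22 SE, adjusted p = 0.456). With the length trends taken out, the change of EIF1 was 0.78 (transcript length, adjusted p = 0.00382) and 0.08 (coding length, adjusted p = 0.725), so that its call depended on which length was used. EIF1B lost its call with either trend taken out, at 0.07 (transcript length, adjusted p = 0.855) and 0.26 (coding length, adjusted p = 0.394).

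Of the 3 subunits of eIF2, only EIF2S3 was called. It was covered by 28.0 and 24.2 reads with CoCl2, against 76.8 and 47.2 untreated (log2 change -1.18 ± 0.33 SE, adjusted p = 0.00541), and -0.85 without the transcript length trend (adjusted p = 0.0518). Without the coding length trend it kept its call at -1.06 (adjusted p = 0.0254). EIF2S2, the beta subunit and the best covered of the 3, had 1278 and 1382 reads with CoCl2 and 796 and 1152 untreated (0.47 ± 0.20 SE, adjusted p = 0.0578). EIF2S1 had 563 and 667 with CoCl2 and 524 and 728 untreated, with a change of -0.01 ± 0.21 SE (adjusted p = 0.969). Of the subunits of this complex, 1 was thus lower and the others were not called. Differences between the subunits were not tested. EIF2A and EIF2D, which can deliver initiator tRNA without eIF2, were not called in coverage. EIF2A had 40.4 and 41.8 reads with CoCl2 and 74.4 and 53.8 untreated, and EIF2D, the better covered of the pair, 83.9 and 91.2 with CoCl2 and 52.1 and 94.4 untreated (log2 change 0.31 ± 0.29 SE, adjusted p = 0.365).

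eIF2B, the exchange factor of eIF2, had 3 of its 5 subunits higher and none lower, beside 25.9% higher and 19.1% lower over all genes. EIF2B2, the beta subunit, had 345 and 327 reads with CoCl2, against 203 and 191 untreated (log2 change 0.77 ± 0.22 SE, adjusted p = 0.00656). EIF2B4, the delta subunit, had 253 and 225 with CoCl2, against 109 and 130 untreated (1.00 ± 0.24 SE, adjusted p = 0.00189). EIF2B2 and EIF2B4 kept their calls without the length trends: EIF2B2 at 1.26 and 0.59 and EIF2B4 at 0.60 and 1.22, for transcript and coding length in turn. EIF2B3, the gamma subunit, had 303 and 320 with CoCl2, against 142 and 201 untreated (0.87 ± 0.23 SE, adjusted p = 0.00398), and lost its call without the transcript length trend (0.35, adjusted p = 0.176). It kept its call without the coding length trend (0.93, adjusted p = 0.0131). EIF2B1 had 309 and 384 reads with CoCl2 and 275 and 315 untreated. EIF2B5, the best covered subunit in untreated cells, had 363 and 440 with CoCl2 and 474 and 559 untreated (-0.36 ± 0.21 SE, adjusted p = 0.151).

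Of 12 eIF3 subunits measured, 4 were higher and 2 lower with CoCl2, beside 25.9% higher and 19.1% lower over all genes. EIF3H and EIF3M kept their calls with either length trend taken out. EIF3H had 287 and 302 reads with CoCl2, against 160 and 187 untreated (log2 change 0.77 ± 0.23 SE, adjusted p = 0.00793). EIF3M had 472 and 529 with CoCl2, against 258 and 348 untreated (0.73 ± 0.22 SE, adjusted p = 0.00811). EIF3G, an RNA-binding subunit, had 425 and 392 with CoCl2, against 190 and 255 untreated (0.89 ± 0.22 SE, adjusted p = 0.0027). EIF3K had 83.9 and 78.0 with CoCl2, against 28.8 and 37.7 untreated (1.27 ± 0.30 SE, adjusted p = 0.00177). EIF3G and EIF3K are short, and without the transcript length trend their changes were 0.06 and 0.34 (adjusted p = 0.822 and 0.346). Without the coding length trend both kept their calls, at 0.64 and 0.77 (adjusted p = 0.0276 and 0.0397).

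The 2 lower eIF3 subunits were EIF3A and EIF3B, both large core subunits. EIF3A had 74.1 and 155 reads with CoCl2, against 181 and 180 untreated (log2 change -0.75 ± 0.27 SE, adjusted p = 0.0261), and its change was 0.10 without the coding length trend. Without the transcript length trend it was -0.27 (adjusted p = 0.519). EIF3B had 101 and 121 with CoCl2, against 214 and 184 untreated (-0.84 ± 0.24 SE, adjusted p = 0.00654), and -0.46 without the transcript length trend (adjusted p = 0.108). Both belong to long transcripts, 6477 and 3010 bases. EIF3D, the best covered subunit, had 833 and 851 with CoCl2 and 511 and 725 untreated (0.47 ± 0.21 SE, adjusted p = 0.0645). EIF3E, of 1503 bases, had 288 and 266 with CoCl2 and 293 and 344 untreated (-0.20 ± 0.22 SE, adjusted p = 0.459), and -0.82 ± 0.16 SE without the transcript length trend (adjusted p = 0.00438). The other 4, EIF3CL, EIF3F, EIF3J and EIF3L, changed by -0.47 to 0.55 on the log2 scale and were not called as measured. With the coding length trend taken out EIF3D was called higher and EIF3J lower.

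The 3 eIF4A genes went in different directions. EIF4A1, the best covered initiation factor, had 3708 and 3496 reads with CoCl2, against 2113 and 2333 untreated (log2 change 0.70 ± 0.19 SE, adjusted p = 0.00453). EIF4A3 had 1168 and 1166 with CoCl2, against 580 and 804 untreated (0.77 ± 0.20 SE, adjusted p = 0.00397). EIF4A2 had 142 and 147 with CoCl2, against 365 and 189 untreated (-0.86 ± 0.26 SE, adjusted p = 0.00859). The transcripts are of similar length (1618 to 1887 bases). Without the transcript length trend EIF4A2 stayed lower at -1.18 ± 0.27 SE (adjusted p = 0.0107), though its change was -0.40 and not called without untreated replicate 1, and EIF4A1 and EIF4A3 stood at 0.26 and 0.23 and were not called. Without the coding length trend all 3 kept their calls. EIF4A1 was then at 0.66 (adjusted p = 0.014), EIF4A3 at 0.74 (adjusted p = 0.0173) and EIF4A2 at -1.06 (adjusted p = 0.0224). The difference between the genes was not tested.

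EIF4H also stayed lower with either length trend taken out. It had 703 and 806 reads with CoCl2, against 1402 and 997 untreated (log2 change -0.65 ± 0.21 SE, adjusted p = 0.012). EIF4B, the other helper of eIF4A, had 82.9 and 95.6 with CoCl2 and 120 and 117 untreated (-0.41 ± 0.25 SE, adjusted p = 0.181). Of the scaffolds, EIF4G2 had 415 and 370 with CoCl2, against 768 and 643 untreated (-0.84 ± 0.21 SE, adjusted p = 0.00249), and -0.35 without the transcript length trend (adjusted p = 0.115). EIF4G1 had 135 and 182 with CoCl2 and 283 and 191 untreated (-0.57 ± 0.24 SE, adjusted p = 0.0572). None of the helpers and scaffolds was called higher.

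The cap-binding proteins and their inhibitors split evenly, with 2 of 4 higher and 2 lower, beside 25.9% higher and 19.1% lower over all genes. EIF4EBP1, the inhibitor that mTOR switches off, had 235 and 264 reads with CoCl2, against 74.4 and 122 untreated (log2 change 1.38 ± 0.25 SE, adjusted p = 0.000415), and 0.52 without the transcript length trend (adjusted p = 0.0756). EIF4EBP2, a second inhibitor, had 49.7 and 38.5 with CoCl2, against 115 and 66.1 untreated (-0.98 ± 0.30 SE, adjusted p = 0.00998). The 2 inhibitors thus differed in sign, with transcripts of 1020 and 7257 bases. EIF4E, the cap-binding protein itself, had 215 and 184 with CoCl2, against 421 and 303 untreated (-0.84 ± 0.23 SE, adjusted p = 0.00448). EIF4E2, also called 4EHP, which binds the cap without eIF4G, had 95.3 and 78.0 with CoCl2, against 54.0 and 49.1 untreated (0.73 ± 0.28 SE, adjusted p = 0.0323). Without the transcript length trend EIF4E2 kept its call at 0.71 (adjusted p = 0.0477), which it lost without the coding length trend (0.31, adjusted p = 0.343). EIF4E and EIF4EBP2 lost theirs without the transcript length trend (-0.38 and -0.51). Without the coding length trend they kept them, at -1.31 and -1.64 (adjusted p = 0.00808 and 0.0106). EIF4EBP1 also kept its call there, at 0.72 (adjusted p = 0.0263).

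Among the factors that act at subunit joining and later, EIF6 and EIF5A were higher. It was covered by 1368 and 1315 reads with CoCl2, against 435 and 748 untreated (log2 change 1.23 ± 0.22 SE, adjusted p = 0.000401), and 0.46 without the transcript length trend (adjusted p = 0.0558). EIF5A had 695 and 739 with CoCl2, against 437 and 481 untreated (0.64 ± 0.20 SE, adjusted p = 0.0122), and 0.01 without that trend. Without the coding length trend EIF6 kept its call at 0.80 (adjusted p = 0.0177), and EIF5A stood at 0.05 (adjusted p = 0.825). The transcripts have 1250 and 1490 bases. EIF5, which makes eIF2 hydrolyse its GTP, had 289 and 362 with CoCl2 and 360 and 339 untreated (-0.11 ± 0.22 SE, adjusted p = 0.682). EIF5B had 37.3 and 56.0 with CoCl2 and 62.3 and 43.9 untreated (-0.19 ± 0.31 SE, adjusted p = 0.626). The groups overlapped in both of these.

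The other genes of initiation and its control were mostly lower where called. Of 33 such genes, among them poly(A)-binding proteins, cap-binding complex, eIF2 kinases and mTOR, 19 could be measured, and 1 was higher and 10 were lower with CoCl2, with a median log2 change of -0.68, beside 25.9% higher and 19.1% lower over all genes. PABPC1, the main poly(A)-binding protein, was covered by 207 ± 30.6 reads with CoCl2 and 580 ± 157 untreated (SD, n = 2 each, log2 change -1.46, adjusted p = 0.000175). ABCE1, which splits ribosomes for reuse, had 89.0 ± 4.61 with CoCl2 and 207 ± 67.2 untreated (-1.17, adjusted p = 0.00108), and EIF2AK1, the heme-regulated eIF2 kinase, 133 ± 1.00 and 293 ± 103 (-1.08, adjusted p = 0.00136). MCTS1, a partner of DENR in recycling and reinitiation, was the 1 gene higher, at 49.4 ± 7.76 with CoCl2 and 25.8 ± 0.921 untreated. With the transcript length trend taken out, none of the 19 was higher and 6 were lower, beside 9.58 and 7.7% of all genes.

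Edited reads in MDA-MB-231 combine abundance and editing. The initiation factors held 2438 and 2113 edited reads with CoCl2, against 1925 and 2045 untreated, or 1.41 and 1.36% of all edited reads, against 1.09 and 1.29% untreated. Of 39 initiation factors tested, 8 had more edited reads with CoCl2 and none fewer, which is 20.5 and 0%, against 12.1 and 2.9% of the 4097 genes tested. At an unadjusted p under 0.05, 15 of the 39 differed, as did 1536 of the 4097 genes, a like share. The median log2 change was 0.39 over the initiation factors and 0.19 over all genes. EIF1AD, EIF1B, EIF4EBP2, EIF4G3 and EIF5A2 had too few edited reads to be tested, and EIF4E3 had none. All 8 were also called higher in coverage, which is counted on the same reads. Leaving out a library leaves 1 library in a group, whose spread is taken from the other group. Counts of calls in such fits say little about stability and were not set against all genes.

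The 8 came from 5 factors: eIF1, eIF2B, eIF3, eIF4A and eIF6. EIF6 had 149 and 133 scaled edited reads with CoCl2, against 31.2 and 61.0 untreated (log2 change 1.67 ± 0.35 SE, adjusted p = 0.0298), and EIF1 36.0 and 32.5, against 9.44 and 12.4 untreated (1.57 ± 0.40 SE, adjusted p = 0.0336). EIF2B2 had 103 and 74.8 with CoCl2, against 28.3 and 37.2 untreated (1.41 ± 0.34 SE, adjusted p = 0.0316), and EIF2B4 97.6 and 61.8, against 27.4 and 38.1 untreated (1.24 ± 0.36 SE, adjusted p = 0.0415). In none of these did the groups overlap. EIF3G had 107 and 84.5 with CoCl2, against 30.2 and 47.6 untreated (1.30 ± 0.34 SE, adjusted p = 0.0337), and EIF3H 102 and 93.2, against 41.5 and 45.7 untreated (1.14 ± 0.31 SE, adjusted p = 0.0348). EIF3M had 97.6 and 103 with CoCl2, against 34.9 and 60.0 untreated (1.11 ± 0.34 SE, adjusted p = 0.0482), and EIF4A3 190 and 129, against 46.3 and 95.3 untreated (1.22 ± 0.37 SE, adjusted p = 0.0477). With the transcript length trend taken out, EIF2B2, EIF3H and EIF3M kept their calls and EIF3E was lower (-1.19 ± 0.27 SE, adjusted p = 0.0357). The length used for EIF3E leaves out ENST00000676706 here too. With the coding length trend taken out, EIF2B2, EIF3H and EIF3M lost their calls (adjusted p = 0.0786, 0.144 and 0.166), EIF2B4 kept its call (1.30, adjusted p = 0.0498) and EIF4H was lower (-1.40, adjusted p = 0.0495), so that none of the 8 calls held under both trends.

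Editing per covering read, the measure closest to translation per mRNA, was then compared between CoCl2 and untreated cells. None of 40 initiation factors passed the test in either direction, and none of the 5673 genes tested did (0% higher and 0% lower, limma), while 485 genes and 2 initiation factors had an unadjusted p under 0.05. The log2 change was above 0 for 35 of the 40, with a median of 0.24. The share of all genes above 0 is not given here. Over all genes the median was 0.20, with quartiles of -0.10 and 0.50, so most genes were above 0 too and the medians lay close together. With 2 libraries a group, a count of 0 does not show that editing per read was alike. In simulated data this test called 0 of 113 genes changed 4-fold. The simulation gave every gene the same assumed spread and number of positions, so it does not measure the power in these data.

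**Figure D5:**
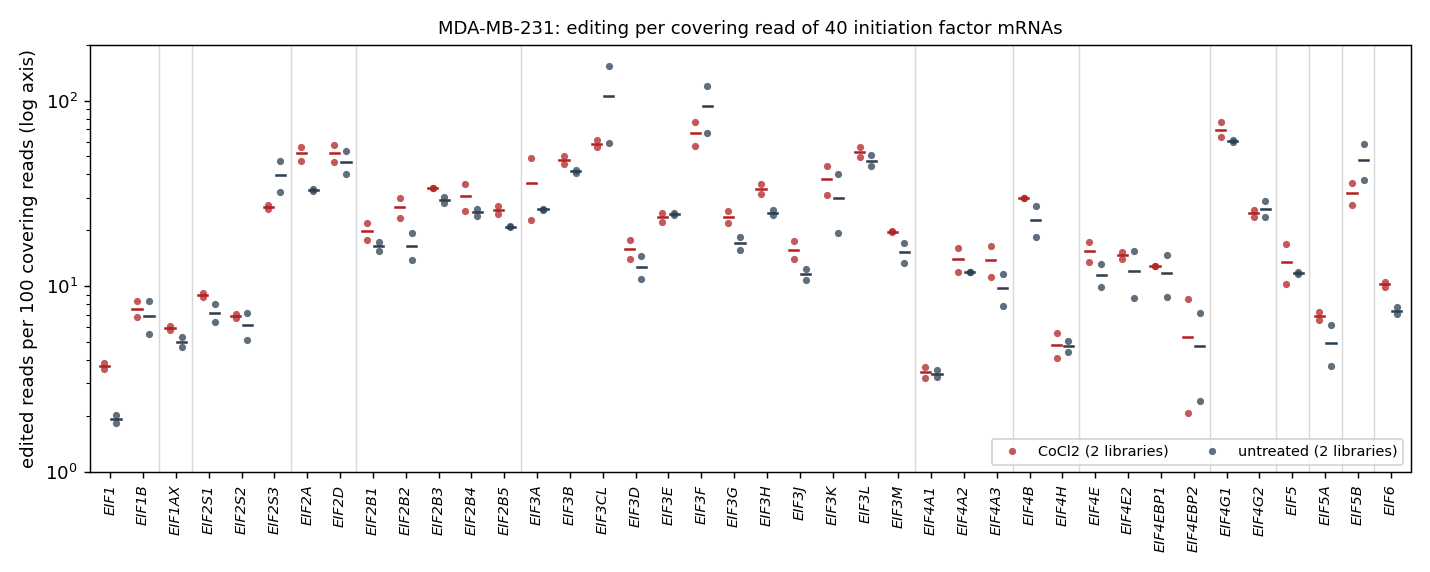
Edited reads per 100 covering reads (log axis) of 40 initiation factor mRNAs in MDA-MB-231, with 1 point per library, bars at group means and grey lines between factors. Single values span 1.84 (EIF1, untreated) to 154 (EIF3CL, untreated), and EIF1, at 3.58 to 3.86 with CoCl2 and 1.84 to 2.03 untreated, has the largest log2 change of the 40.

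The 2 with an unadjusted p under 0.05 were EIF1 and EIF2B2. EIF1 had 3.86 and 3.58 edited reads per 100 covering reads with CoCl2, against 1.84 and 2.03 untreated (log2 change 0.90 ± 0.19 SE, unadjusted p = 0.00133 and adjusted p = 0.517, limma). EIF2B2 had 30.0 and 23.2 with CoCl2, against 13.8 and 19.3 untreated (0.68 ± 0.28 SE, unadjusted p = 0.0395 and adjusted p = 0.571, limma). EIF4A1 had nearly the same values in both groups, 3.69 and 3.21 with CoCl2 and 3.52 and 3.24 untreated (0.02 ± 0.17 SE). EIF4G2, with 23.5 and 25.8 with CoCl2 and 28.9 and 23.5 untreated, and EIF4H, with 5.60 and 4.09 with CoCl2 and 5.04 and 4.45 untreated, also overlapped. Of the factors whose coverage was lower, EIF2S3 had 25.9 and 27.3 with CoCl2 and 47.3 and 32.0 untreated (-0.48 ± 0.42 SE), on 28.0 and 24.2 covering reads with CoCl2.

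Long reads assign each edit to an isoform, and 7 initiation factors had at least 2 isoforms with a mean of 20 or more reads in MDA-MB-231. Of the EIF6 reads, 80.9 and 83.2% belonged to ENST00000374450 with CoCl2 and 80.1 and 79.6% untreated. Of the EIF4H reads, 90.3 and 92.0% belonged to ENST00000353999, the shorter form at 684 coding bases, with CoCl2 and 92.6 and 91.4% untreated. The leading isoform held at least 79.6% of reads in every library of both genes. EIF3B was divided between ENST00000360876, with 50.5 and 40% of reads with CoCl2 and 50.4 and 54.0% untreated, and ENST00000397011, both with 2442 coding bases. Of the EIF4A2 reads, 84.7 and 84.3% belonged to ENST00000323963 with CoCl2 and 81.4 and 76.5% untreated, so that the groups did not overlap. With 2 libraries a group these shares were not tested.

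Over the whole isoform, the isoforms of EIF3E differed in editing per read. ENST00000676706 is not in GENCODE 29, so these values could not be divided by coding length. ENST00000220849 had 34.3 and 29.1 edited reads per 100 covering reads with CoCl2 and 31.3 and 31.9 untreated, and ENST00000676706, which held 34.9 and 31.8% of EIF3E reads with CoCl2 and 27.0 and 31.2% untreated, had 7.22 and 7.79 with CoCl2 and 4.71 and 8.77 untreated. The edits of ENST00000676706 lay in 1 stretch of the coding sequence that both isoforms were edited in. Within that stretch ENST00000220849 had 8.84 and 6.67 edited reads per 100 covering reads with CoCl2 and 11.7 and 11.2 untreated. The isoforms were thus close to each other there with CoCl2, and ENST00000220849 was the higher in both untreated libraries, on 27 and 28 edited reads against 4 and 10.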

How the data were processed

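Long reads of polyadenylated RNA from 10 libraries were analysed. The authors deposited a pair of read counts, edited and covering, for each coding position of an annotated isoform with at least 1 edited read; headers are lacking, and the meaning was read from the numbers. Aligner, edit caller and filters: not given in the sources used here. Per the submitters' processing notes the builds were hg19 and hg38, with no roles stated. In MDA-MB-231, 98.7% of 6142 entries of initiation factors lay in their own GRCh38 coding sequence, and in HEK293T 0.0482% of 2076 did, so HEK293T coordinates were not used. Library kits differed between the lines per the labels' protocols, and each line was fitted alone.

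Edited reads were summed per gene and divided by relative depth, the median coverage ratio of the isoforms that all libraries of the line list (405 for HEK293T and 7313 for MDA-MB-231). Coverage was the sum over such isoforms of the median coverage, TMM scaled. Editing per covering read was the log2 ratio of edited to unedited reads over the union of positions, with 0.5 added to each. The minimum was 10 edited reads in 3 HEK293T or 2 MDA-MB-231 libraries, or 10 covering reads on average. Tests used limma 3.58.1 under R 4.3.3, with the trend option, on log2(value + 1) or the ratio, two-sided, with Benjamini-Hochberg adjustment over all genes and a threshold of 0.05. Each cell holds a pair of numbers, so no count model was used. Length trends were lowess curves (span 0.5) on GENCODE 29 lengths. The scripts were tested on simulated data. In simulated MDA-MB-231 editing per covering read, 0 of 87 genes changed 2-fold and 0 of 113 changed 4-fold were called. With counting-error weights, 1 and 18 of these were. The spread between libraries and the number of positions were assumed and the same for every simulated gene. The depth of whole libraries is unknown, and reads need not be independent molecules.

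All members were accounted for by factor, with full values for those called in MDA-MB-231, the 3 largest and 3 smallest changes in HEK293T, and the best covered member of each factor in untreated cells. Sequence windows show the most edited position of the gene named for each factor, in order of edited reads, up to 12. Other genes of a factor may hold a more edited position. The members and lists were chosen with earlier results of these data known.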

Additional observations from a re-analysis of the deposited data

How the results depend on the processing

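For edited reads in HEK293T, 12 initiation factors were higher with Ribo-STAMP as reported, 0 with TMM scaling, 23 without the filter, 5 over positions with at least 2 edited reads, and 13 to 16 with 1 library left out. EIF4G2 (-0.33) and EIF4H (-0.06) changed sign with TMM scaling. For editing per covering read there, 9 were higher, 1 with libraries centred on the median gene, and 9 to 11 with 1 library left out; EIF2B5 (-0.62), EIF3M (-0.83) and EIF4G2 (-0.09) changed sign when centred. Both settings remove a shared difference by construction. In MDA-MB-231 coverage, 15 were higher and 8 lower; 8 and 3 with the transcript length trend taken out; 0 to 20 and 0 to 11 with 1 library left out. EIF3A was at 0.10 with the coding length trend taken out, which left 12 higher and 6 lower. With the transcript length trend taken out and 1 library left out, 3 to 18 were higher and 0 to 8 lower. For edited reads in MDA-MB-231, 8 were higher and 0 lower; 3 and 2 with TMM scaling, 3 and 1 without the transcript length trend, 1 and 1 without the coding length trend, 1 higher over positions with at least 2 edited reads, 0 higher without the filter, 1 lower over positions with under 50% of reads edited, and 0 to 14 higher and 0 to 6 lower with 1 library left out. For these counts the cause was not tested. Counts over all genes are given below for some settings only, and the other counts are not results about the initiation factors. Editing per covering read in MDA-MB-231 gave 0 in every setting run. Settings on coding length and counting-error weights, and libraries left out after the length trend, were chosen after seeing the data.

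Over all genes, the calls moved by over 1.5 times in these settings: in HEK293T from 652 higher to 25 (TMM) and 375 to 73 (centred), and in MDA-MB-231 coverage 1465 higher and 1080 lower became 541 and 435 without the transcript length trend and 0 and 5 without CoCl2 replicate 1.

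With the replicate number as a block (replicate block), 12 and 9 initiation factors were higher in the HEK293T tests. In MDA-MB-231, 15 were higher and 8 lower in coverage, and 12 were higher and 2 lower in edited reads. Shares over all genes with this block are not given here, so these counts are not results about the initiation factors. Same-numbered libraries correlated at 0.09, 0.12 and 0.33 in HEK293T, and those of other numbers at -0.25 to 0.18. In MDA-MB-231 the values were 0.02 and -0.02. With 2 libraries a group the deviations mirror each other, so these values cannot show whether the numbers pair the libraries. Whether same-numbered libraries share a batch was not tested.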
